A study of Mus musculus with 6 samples.

Results

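The genes described here are the 40 genes of homologous recombination, the Fanconi anaemia pathway and the ATM and ATR checkpoint, taken by symbol from a list of names out of 29721 genes in the count table. All 40 were found, and all 40 had enough reads to be tested. They were measured by mRNA sequencing of pancreas from 3 PARP2 KO and 3 WT mice, all aged 3 months and all on the Ela-myc background, in which an elastase promoter drives Myc in the enzyme-secreting acinar cells. The knockouts lack PARP2, an enzyme that attaches ADP-ribose at DNA breaks; the labels name neither the deleted part of Parp2 nor the tissues that lack it. Each library came from its own animal. The labels call the tissue pancreas while the protocol speaks of tumour samples, so the part of the organ that was taken is not known.

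Homologous recombination mends double-strand DNA breaks by copying the sister chromatid, and for that reason it works in S and G2 phase. Broken ends are first cut back to single strands, on which BRCA1, PALB2 and BRCA2 help to start the search for the matching strand. Fanconi anaemia proteins detect crosslinked DNA at stalled forks and hand it to the same machinery, while ATM responds to double-strand breaks and ATR to exposed single strands, passing the signal to the kinases CHK2 and CHK1. Many genes of these pathways are transcribed mainly in cycling cells. Cells without BRCA1 or BRCA2 are known for their sensitivity to inhibitors of PARP1 and PARP2.

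Libraries held between 28105021 and 32055565 counts, and a member had between 56 and 3536 counts in a library, with a median of 418. Levels are given as CPM, counts relative to library size, after TMM scaling, which evens out differences in RNA composition between libraries. Parp2 itself was at 14.4, 12.4 and 13.6 CPM in PARP2 KO and at 40.5, 36.4 and 37.5 CPM in WT, so the knockout libraries held less of the targeted transcript. The acinar content differed widely: 10 acinar genes summed to 23100, 89700 and 96.5 CPM in PARP2 KO replicates 1, 2 and 3 and to 153000 to 226000 CPM in WT, and Amy2a5 was at 0 in PARP2 KO replicate 3. The count of calls is therefore also given without that library. Myc, the gene that drives this model, was at 83.4, 177 and 51.4 CPM in PARP2 KO and at 256, 266 and 391 CPM in WT (edgeR adjusted p = 0.0366). In bulk tissue, fewer cells of a type and less RNA per cell cannot be told apart.

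Of the 40 members, 17 fell and 2 rose in PARP2 KO (edgeR quasi-likelihood test, adjusted p under 0.05 over all 17652 genes tested). Over all genes tested, 25.0% were called lower and 28.0% higher. The largest falls were in the resection nuclease gene Exo1, to 0.295 of the WT level, and in the checkpoint kinase gene Chek1, to 0.353 of it, and the rises were in Atm and Fancg. The median log2 fold change over the 40 members was -0.30, against 0.02 over all genes tested. The members' change depended on the scaling: under library totals alone (no TMM scaling), which raised the log2 fold change of the median gene by 0.40, 5 members fell and 7 rose, against 12.2% and 42.3% of all genes. Relative to the median of all genes, the median member lay 0.32 log2 units lower under both scalings. A change of scaling moves all genes by about the same amount, so this equality follows from the method. Without PARP2 KO replicate 3, 15 members fell and 1 rose, against 20.4% and 23.5% of all genes.

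Read in each library with TMM scaling, the change was of similar size in the 3 knockouts. The TMM factors were 1.19, 1.05 and 1.22 in PARP2 KO replicates 1, 2 and 3. They were 0.824, 0.828 and 0.965 in WT replicates 1, 2 and 3. Without these factors the knockout medians would move up by unequal amounts. The median over members of log2(CPM + 0.5) relative to each gene's WT mean was -0.31, -0.37 and -0.27 in PARP2 KO replicates 1, 2 and 3, and 0.03, -0.02 and -0.04 in WT replicates 1, 2 and 3. All 3 knockout libraries lay below all 3 wild-type libraries for 23 members and above them for 4. The same held for 33.7% and 34.4% of all genes tested.

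**Figure D1:**
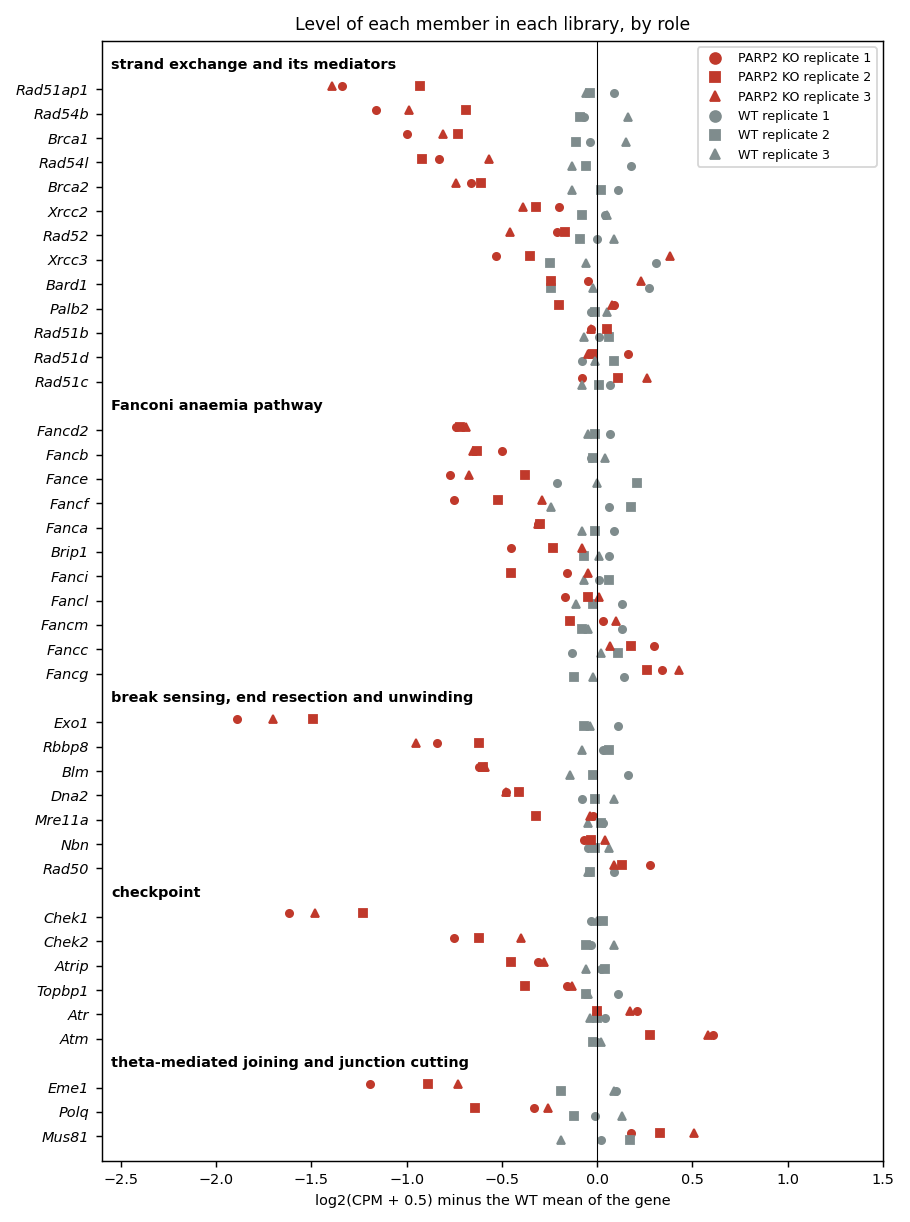
Level of each of the 40 members in each library, as log2(CPM + 0.5) minus the mean of the 3 WT libraries for that gene (x axis), with members grouped by role and PARP2 KO libraries in red above WT libraries in grey. Exo1 and Chek1 lie farthest to the left, Atm is shifted to the right, and members such as Nbn, Rad51b and Fancm overlap between genotypes; under library totals alone all values in knockout move up.

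The promoters of members with an entry in RefSeq (GRCm38.p6) were read. A window from 250 bases before to 50 bases after the start was found for 32 members. Windows were searched on both strands for TTCCCGC or TTGGCGC, which resemble the site of E2F, the factor family that switches on S phase genes, for CCAAT, and for TTTGAA, the cell cycle homology region; TTGGCGC can share 4 bases with CCAAT on the opposite strand. An E2F-type match was present in 16 of 32 members (50%), compared with 13% of 12487 tested genes with a window and 7.79% of all 27025 genes with one. The share was alike among members that fell, 6 of 13, and members that were not called, 8 of 17, and both members that rose had one. Exo1, Rbbp8, Fancd2 and Rad54b also fell but had no window, so this comparison leaves out the member with the largest fall, Exo1. CCAAT was present in 18 of 32 members (56.2%) and in 42.1% of tested genes, and TTTGAA in 4 of 32 (12.5%) and in 15.1% of tested genes. The 200 bases before the start are shown for 4 members that fell (Brca2, Chek2, Fancb and Rad51ap1), 2 that did not change beyond the threshold (Rad51c and Fancm) and 1 that rose (Fancg), so that the same letters can be seen under different outcomes. Capitals mark complete matches to any of the motifs within the stretch.
Brca2 (chr5:150522421-150522620, plus strand): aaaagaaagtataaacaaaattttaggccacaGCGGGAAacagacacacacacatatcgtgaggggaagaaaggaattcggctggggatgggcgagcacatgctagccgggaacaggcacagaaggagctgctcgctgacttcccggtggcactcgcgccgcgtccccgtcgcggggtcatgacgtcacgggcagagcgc
Chek2 (chr5:110839783-110839982, plus strand): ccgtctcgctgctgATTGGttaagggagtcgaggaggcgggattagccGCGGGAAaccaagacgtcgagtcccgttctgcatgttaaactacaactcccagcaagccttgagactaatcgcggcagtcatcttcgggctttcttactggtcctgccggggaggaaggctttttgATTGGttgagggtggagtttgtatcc
Fancb (chrX:164980392-164980591, plus strand): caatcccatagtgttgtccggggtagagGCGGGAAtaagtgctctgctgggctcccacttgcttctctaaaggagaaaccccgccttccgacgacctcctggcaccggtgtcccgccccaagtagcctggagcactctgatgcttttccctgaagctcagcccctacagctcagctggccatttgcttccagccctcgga
Rad51ap1 (chr6:126939588-126939787, minus strand): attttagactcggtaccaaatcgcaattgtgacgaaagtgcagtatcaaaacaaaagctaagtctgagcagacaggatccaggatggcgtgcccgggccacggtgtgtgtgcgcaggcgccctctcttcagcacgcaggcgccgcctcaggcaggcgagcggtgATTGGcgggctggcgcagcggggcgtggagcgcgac
Rad51c (chr11:87404955-87405154, minus strand): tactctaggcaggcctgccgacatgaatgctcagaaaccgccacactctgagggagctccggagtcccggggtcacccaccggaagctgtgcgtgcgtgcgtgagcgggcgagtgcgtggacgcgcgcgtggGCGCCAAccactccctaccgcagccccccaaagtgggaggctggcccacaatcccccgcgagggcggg
Fancm (chr12:65075403-65075602, plus strand): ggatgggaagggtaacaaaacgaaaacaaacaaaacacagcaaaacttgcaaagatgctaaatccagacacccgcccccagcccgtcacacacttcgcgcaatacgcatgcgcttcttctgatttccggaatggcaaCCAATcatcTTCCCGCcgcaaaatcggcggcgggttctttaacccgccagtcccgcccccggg
Fancg (chr4:43010302-43010501, minus strand): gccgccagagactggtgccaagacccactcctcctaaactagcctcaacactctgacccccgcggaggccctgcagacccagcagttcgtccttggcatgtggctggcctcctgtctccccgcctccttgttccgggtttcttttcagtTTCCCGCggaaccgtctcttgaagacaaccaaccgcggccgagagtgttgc
Counted from the start, the E2F-type match began at -168 in Brca2, -152 in Chek2, -172 in Fancb, -68 in Rad51c (another, at -5, runs past the start and is not in capitals), -54 in Fancm and -51 in Fancg. In Rad51ap1 it began at 13 after the start, outside the stretch shown, and the match in capitals there is CCAAT on the opposite strand at -36. A match to these letters is a description of the window and not a measured binding site.

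Genes of strand exchange and of its mediators formed the first role group. In it 5 of 13 fell and 0 rose, against 25.0% lower and 28.0% higher over all genes tested. The middle gene of the group had a log2 fold change of -0.28. Rad51ap1 (ENSMUSG00000030346, chromosome 6, 126923050 to 126939587, GRCm38), whose product promotes strand pairing, had 7.68, 10.4 and 7.40 CPM in PARP2 KO and 21.6, 19.7 and 19.4 CPM in WT. Every knockout library was below every wild-type one, and the log2 fold change was -1.26 (edgeR adjusted p = 0.00273, SE 0.159). Brca1 (ENSMUSG00000017146, chromosome 11, 101488764 to 101551955), which encodes a ubiquitin ligase that promotes resection, had 13.5, 16.3 and 15.4 CPM in PARP2 KO and 26.6, 25.3 and 30.5 CPM in WT. The groups did not overlap, and the log2 fold change was -0.87 (edgeR adjusted p = 0.00324, SE 0.121). Brca2 (ENSMUSG00000041147, chromosome 5, 150522630 to 150570329), which encodes a mediator that acts on single-stranded DNA, had 13, 13.5 and 12.3 CPM in PARP2 KO and 22.6, 21.2 and 19 CPM in WT. It too was lower in every knockout library, with a log2 fold change of -0.69 (edgeR adjusted p = 0.0040, SE 0.106), but under library totals alone its call ended (adjusted p = 0.0735).

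The motor protein genes Rad54l and Rad54b, whose products remodel DNA during strand exchange, fell by 0.80 and 1.05 on the log2 scale (edgeR adjusted p = 0.00719 and 0.00897), and under library totals alone both calls ended. Rad54l shares 15.4% of its exon bases with Lrrc41 on the opposite strand. Rad54b shares 35.8% of its exon bases with Fsbp on the same strand, so its count is uncertain. The other 8 genes of the group did not pass the threshold. The 5 mediator genes Rad51b, Rad51c, Rad51d, Xrcc2 and Xrcc3 lay between a log2 fold change of -0.32 for Xrcc2 and 0.12 for Rad51c. Rad51b had 2.81, 3.00 and 2.80 CPM in PARP2 KO and 2.90, 3.01 and 2.72 CPM in WT, with overlapping groups. Palb2, which encodes the bridge between BRCA1 and BRCA2, averaged 7.33 ± 0.883 CPM in PARP2 KO and 7.35 ± 0.236 CPM in WT (SD, n = 3 each). The BRCA1 partner gene Bard1 averaged 7.47 ± 1.32 CPM in PARP2 KO and 7.61 ± 1.45 CPM in WT (SD, n = 3 each). Rad52, which encodes a strand-annealing protein, had a log2 fold change of -0.28 (edgeR adjusted p = 0.0892, SE 0.121).

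In the Fanconi anaemia pathway 4 of 11 genes fell and 1 rose, against 25.0% lower and 28.0% higher over all genes tested. Fancd2 (ENSMUSG00000034023, chromosome 6, 113531682 to 113597017), which encodes the clamp that is ubiquitinated at crosslinks, had 9.71, 9.85 and 10.1 CPM in PARP2 KO and 17.4, 16.5 and 15.9 CPM in WT. The knockouts were close together and below every wild-type library, with a log2 fold change of -0.75 (edgeR adjusted p = 0.00299, SE 0.0992). Its partner gene Fanci averaged 8.70 ± 1.27 CPM in PARP2 KO and 10.1 ± 0.484 CPM in WT (SD, n = 3 each; edgeR adjusted p = 0.26), with overlapping groups. Fanci shares 16% of its exon bases with Polg on the opposite strand, and whether counting used strand is not given in the sources used here.

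Of the core complex genes, which encode the ligase that modifies FANCD2, Fancb had 6.33, 5.77 and 5.65 CPM in PARP2 KO and 9.0, 9.07 and 9.47 CPM in WT. This X-linked gene was lower in every knockout library (log2 fold change -0.63, edgeR adjusted p = 0.0103, SE 0.135; 0.0321 with sex as a term). Fance had 11.2, 14.8 and 12.1 CPM in PARP2 KO and 16.8, 22.6 and 19.5 CPM in WT (log2 fold change -0.63, edgeR adjusted p = 0.0193, SE 0.162). The groups did not overlap, yet the call of Fance ended without PARP2 KO replicates 1 or 3 or WT replicate 2 (adjusted p up to 0.0873). Fanca had 11.2, 11.3 and 11.2 CPM in PARP2 KO and 14.9, 13.9 and 13.3 CPM in WT, a fall without overlap of 0.32 on the log2 scale (edgeR adjusted p = 0.0402, SE 0.104). This call ended whichever library was dropped (edgeR adjusted p up to 0.122) and with sex as a term (edgeR adjusted p = 0.102). Fanca shares 10.5% of its exon bases with Zfp276 on the opposite strand, a gene with more reads. Fancg, which encodes a scaffold of the complex, had 15, 14.2 and 16.0 CPM in PARP2 KO and 13.0, 10.7 and 11.6 CPM in WT. It was the member of the pathway that rose (log2 fold change 0.36, edgeR adjusted p = 0.045, SE 0.119), and this call ended when any library other than PARP2 KO replicate 2 was left out (adjusted p up to 0.144) and with sex as a term (adjusted p = 0.0918). The call of Fancg also ended with DESeq2 size factors (edgeR adjusted p = 0.0535) and in the DESeq2 Wald test (adjusted p = 0.0538). It ended as well with TMM factors computed without digestive enzyme genes, without a count filter and with the acinar level as a term. The core genes Fancc, Fancf, Fancl and Fancm and the helicase gene Brip1 were not called, with log2 fold changes between -0.59 for Fancf and 0.19 for Fancc. Under library totals alone the calls of Fancd2, Fancb, Fance and Fanca all ended, and the log2 fold change of Fanca was 0.08.

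Among the 7 genes of break sensing, end resection and unwinding, 4 fell and 0 rose. Over all genes tested, 25.0% were lower and 28.0% higher. Exo1 (ENSMUSG00000039748, chromosome 1, 175880581 to 175913489), which encodes the exonuclease of long-range resection, had 5.62, 7.57 and 6.48 CPM in PARP2 KO and 24.0, 21.1 and 21.6 CPM in WT. The groups lay far apart (log2 fold change -1.76, edgeR adjusted p = 0.00201, SE 0.144), farther than for any other member. Rbbp8, the gene of the resection starter CtIP, had 29.0, 33.9 and 26.8 CPM in PARP2 KO and 53.2, 54.4 and 49.3 CPM in WT, without overlap (log2 fold change -0.81, edgeR adjusted p = 0.00316, SE 0.111). Blm, which encodes a helicase of resection and junction dissolution, had 13.6, 13.8 and 13.9 CPM in PARP2 KO and 23.7, 21.0 and 19.2 CPM in WT. The knockout values were nearly equal and all lower (log2 fold change -0.63, edgeR adjusted p = 0.00546, SE 0.109), although under library totals alone the call ended (adjusted p = 0.175). The nuclease and helicase gene Dna2, with 11.9, 12.6 and 12 CPM in PARP2 KO and 15.9, 16.8 and 18.0 CPM in WT, fell by 0.47 (edgeR adjusted p = 0.0103, SE 0.101), and its call ended without PARP2 KO replicate 1 (adjusted p = 0.0509) and under library totals alone.

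The 3 genes of the MRN complex, which senses the break and makes the first cut, were not called. Nbn had 25.1, 25.7 and 26.9 CPM in PARP2 KO and 25.4, 26.2 and 27.3 CPM in WT, and the groups overlapped almost fully. Mre11a averaged 31.3 ± 3.59 CPM in PARP2 KO and 34.1 ± 1.04 CPM in WT, and Rad50 averaged 47.5 ± 3.36 CPM in PARP2 KO and 42.2 ± 2.28 CPM in WT (SD, n = 3 each; edgeR adjusted p = 0.348 and 0.147). Per kilobase of annotated exon, Nbn had the highest WT level of the 40 members, 10.4 CPM per kb, followed by Topbp1 at 8.86 and Rad50 at 7.85 CPM per kb. The lowest were Rad51c at 0.547 and Rad51b at 0.765 CPM per kb. The members with the highest and the lowest level per length were thus not among those called.

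Of 6 checkpoint genes, 3 fell and 1 rose, against 25.0% lower and 28.0% higher over all genes tested. Chek1 (ENSMUSG00000032113, chromosome 9, 36708482 to 36727065), the gene of the S and G2 phase kinase CHK1 that ATR activates, had 5.81, 7.76 and 6.45 CPM in PARP2 KO and 18.5, 19.3 and 18.8 CPM in WT. The groups were well apart (log2 fold change -1.50, edgeR adjusted p = 0.00201, SE 0.139). Chek2, the gene of the ATM-activated kinase CHK2, had 9.90, 10.9 and 12.7 CPM in PARP2 KO and 16.7, 16.3 and 18.1 CPM in WT, again without overlap (log2 fold change -0.61, edgeR adjusted p = 0.0105, SE 0.13), but under library totals alone its call ended (adjusted p = 0.36). Atm (ENSMUSG00000034218, chromosome 9, 53439149 to 53536740) had 84.0, 66.9 and 82.1 CPM in PARP2 KO and 55.0, 53.9 and 55.8 CPM in WT. Every knockout library was above every wild-type one (log2 fold change 0.50, edgeR adjusted p = 0.00976, SE 0.105). With the acinar level as a term, which itself differed between genotypes, the log2 fold change was 0.39 (edgeR adjusted p = 0.0611, SE 0.131).

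Atrip, which encodes the partner that brings ATR to single-stranded DNA, had 15, 13.5 and 15.3 CPM in PARP2 KO and 19, 19.3 and 17.9 CPM in WT. It fell by 0.36 (edgeR adjusted p = 0.0231, SE 0.098), but under library totals alone its log2 fold change was 0.05, and without PARP2 KO replicate 1, WT replicate 1 or WT replicate 2 the call ended (adjusted p up to 0.075), as it did with sex as a term (adjusted p = 0.0625). Atrip shares 16% of its exon bases with Trex1 on the same strand, so part of its reads may belong to that gene. Atr averaged 58.5 ± 4.60 CPM in PARP2 KO and 53.3 ± 1.51 CPM in WT, and Topbp1, which encodes the activator of ATR, averaged 85.4 ± 7.94 CPM in PARP2 KO and 99.5 ± 6.73 CPM in WT (SD, n = 3 each; edgeR adjusted p = 0.229 and 0.105).

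The remaining role group holds theta-mediated joining and junction cutting. Eme1 (ENSMUSG00000039055, chromosome 11, 94644996 to 94653964), which encodes the regulatory subunit of a nuclease that cuts joint molecules, had 3.03, 3.85 and 4.34 CPM in PARP2 KO and 8.14, 6.58 and 8.06 CPM in WT. The groups did not overlap (log2 fold change -1.02, edgeR adjusted p = 0.00854, SE 0.205), but under library totals alone the call ended (adjusted p = 0.0685). The exons of Eme1 share 8% of their bases with Lrrc59 on the opposite strand, a gene with far more reads. Mus81, the gene of the catalytic subunit, had 13.9, 15.5 and 17.6 CPM in PARP2 KO and 12.3, 13.8 and 10.6 CPM in WT (log2 fold change 0.36, edgeR adjusted p = 0.0833, SE 0.148). Polq, which encodes the polymerase of theta-mediated end joining, had 10, 8.02 and 10.6 CPM in PARP2 KO and 12.7, 11.6 and 14 CPM in WT (log2 fold change -0.42, edgeR adjusted p = 0.0565, SE 0.153). Neither gene passed the threshold, although in both the groups did not overlap. For Mus81 the gap was slight, from 13.8 CPM in the highest WT library to 13.9 CPM in the lowest knockout library. Polq was called lower with DESeq2 size factors (adjusted p = 0.0491), by the DESeq2 Wald test (adjusted p = 0.0489) and by limma on the deposited log2 values (adjusted p = 0.0497), and its adjusted p ranged up to 0.949 under library totals alone.

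**Figure D2:**
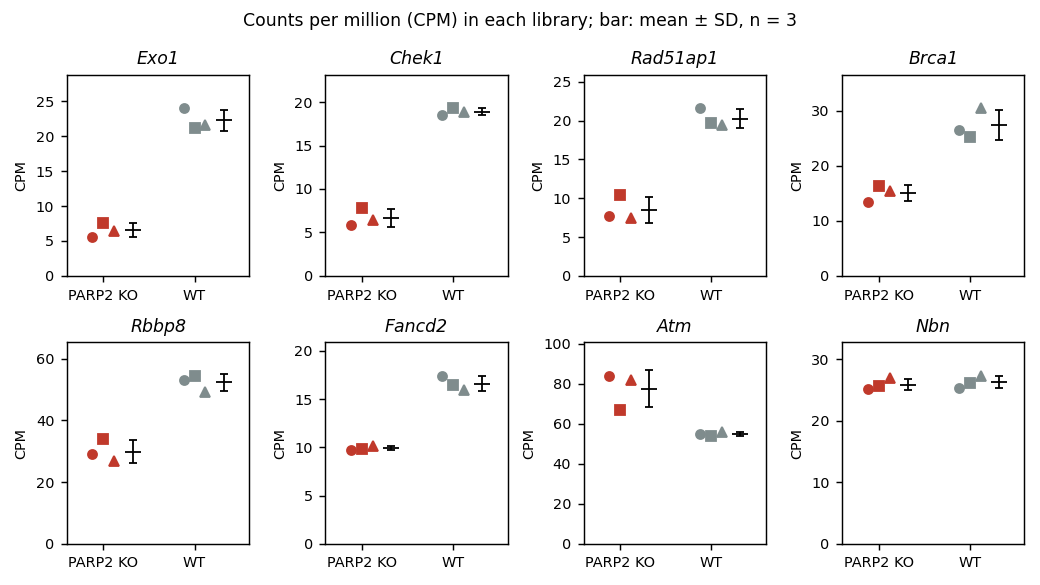
CPM of 8 members in each library (points; y axis from 0), with PARP2 KO left of WT, and the mean ± SD of 3 libraries beside them (bar). Exo1, Chek1, Rad51ap1, Brca1, Rbbp8 and Fancd2 are lower in every knockout library, Atm is higher in every one, and Nbn has nearly the same range in both genotypes; Fancd2 is not past the threshold under library totals alone.

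Calls of 5 members, Brca1, Chek1, Exo1, Rad51ap1 and Rbbp8, were kept in all 16 other settings of the test at the 0.05 threshold, including library totals alone, where their log2 fold changes lay between -1.37 for Exo1 and -0.41 for Rbbp8. A further 6, Blm, Brca2, Chek2, Eme1, Fancd2 and Rad54l, lost the call under that scaling alone. The 7 members that rose under it were Atm, Atr, Fancc, Fancg, Mus81, Rad50 and Rad51d. With the acinar level as a term, 11 of the 17 lower calls and 0 of the 2 higher calls were kept, when 14.8% of all genes were called lower and 18.3% higher. The acinar list medians were -3.05, -1.12 and -10.83 in PARP2 KO replicates 1, 2 and 3 and -0.22 to 0.15 in WT. Acinar level and genotype therefore cannot be fully told apart in that fit. The SE of Rad54b was 0.295 with the term and 0.215 without it. Whether acinar content accounts for the calls that ended was not tested. In that fit the log2 fold changes of the members whose calls ended were -0.43 for Atrip, -0.45 for Dna2, -0.31 for Fanca, -0.59 for Fancb, -0.53 for Fance, -0.95 for Rad54b, 0.39 for Atm and 0.27 for Fancg.

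**Figure D3:**
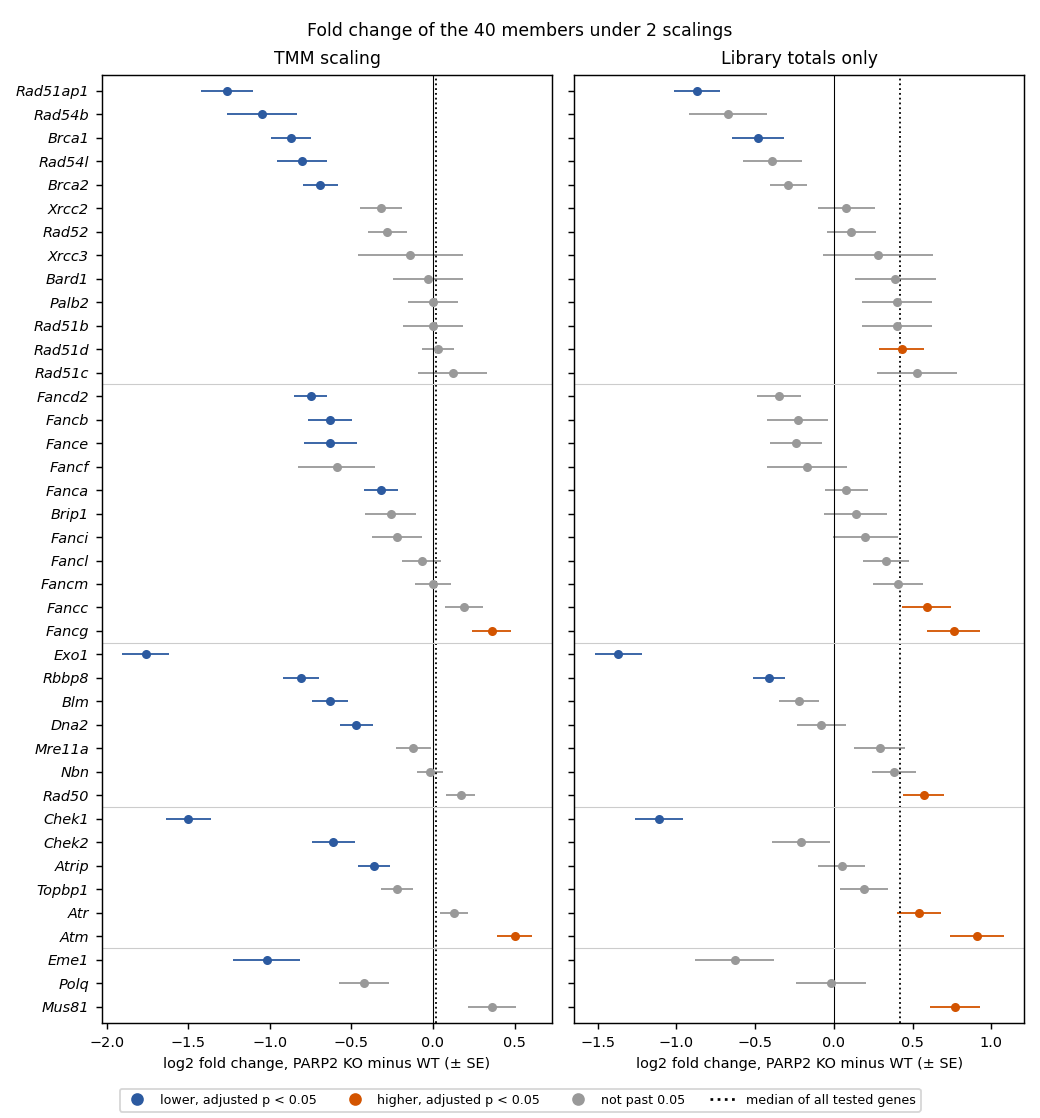
Log2 fold change of each member, PARP2 KO minus WT, with its SE (x axis), under TMM scaling (left) and with library totals only (right); colours mark the edgeR call and the dotted line is the median of all tested genes. The median of all tested genes lies 0.40 farther to the right with library totals only, where the 17 lower and 2 higher calls become 5 and 7.

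Ratios of counts between genes of a library do not depend on scaling. The 12 ratios between partners or successive factors were chosen after the members' values were known and are given as a description. An exact permutation test of 3 against 3 libraries cannot give a p under 0.10, and no ratio passed the threshold in it. Most ratios set a member that was called against one that was not, so their separation follows in part from that choice. The Brca1 to Bard1 ratio was 2.06 ± 0.471 in PARP2 KO and 3.69 ± 0.680 in WT, and that of Brca2 to Palb2 was 1.79 ± 0.308 in PARP2 KO and 2.86 ± 0.329 in WT (SD, n = 3 each). Fancd2 to Fanci stood at 1.15 ± 0.173 in PARP2 KO and 1.64 ± 0.077 in WT. In each of these 3 ratios every knockout value lay below every wild-type value.

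The largest shifts were between Chek1 and Atr, with ratios of 0.0938, 0.146 and 0.107 in PARP2 KO and 0.337, 0.362 and 0.364 in WT, and between Exo1 and Mre11a, with ratios of 0.167, 0.279 and 0.196 in PARP2 KO and 0.687, 0.613 and 0.656 in WT. Both differ by -1.64 on the log2 scale. The Eme1 to Mus81 ratio was 0.218, 0.249 and 0.247 in PARP2 KO and 0.660, 0.478 and 0.760 in WT, a log2 difference of -1.39. The Nbn to Mre11a ratio overlapped between genotypes, at 0.837 ± 0.103 in PARP2 KO and 0.772 ± 0.0526 in WT (SD, n = 3 each).

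**Figure D4:**
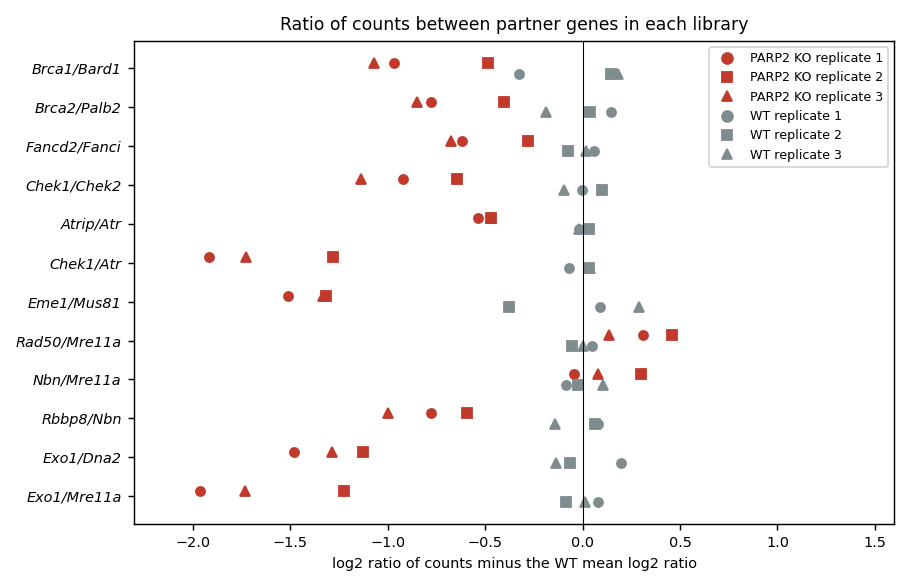
Log2 ratio of counts between the 2 genes named, minus the mean of the 3 WT libraries (x axis), with PARP2 KO libraries in red above WT libraries in grey. Nbn to Mre11a overlaps between genotypes, Rad50 to Mre11a lies to the right in knockout and Chek1 to Atr and Exo1 to Mre11a lie farthest to the left; the ratios were chosen after the values were known.

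Beyond the members, 60 further genes of these pathways were found in the table and tested, and of these 22 fell and 11 rose (edgeR), against 25.0% and 28.0% of all genes. Under library totals alone 9 fell and 22 rose, against 12.2% and 42.3% of all genes. With TMM scaling the further genes lay around a middle value of -0.13 for the log2 fold change. Cdc25c, which encodes a phosphatase that CHK1 holds back, fell by 1.58, the helicase gene Mcm8 by 1.19 and Faap24, a partner of FANCM, by 1.03 on the log2 scale. Rpa2 and Nabp2, whose products coat single-stranded DNA, fell by 0.68 and 0.81 (edgeR adjusted p at most 0.00283 for these 5 genes). On the opposite strand, Nabp2 shares 6.1% of its exon bases with Ankrd52, a gene with more reads, and Faap24 shares 7.02% with Rhpn2. Cdc25c shares 12.7% with Gm3550, also on the opposite strand, which has few reads.

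Among the genes that rose, Wrn, which encodes the helicase lost in Werner syndrome, had 50.7, 41.1 and 48.5 CPM in PARP2 KO and 24.8, 24.1 and 25.1 CPM in WT (log2 fold change 0.92, edgeR adjusted p = 0.00223, SE 0.103). Nabp1, a paralog of Nabp2, had 126, 108 and 201 CPM in PARP2 KO and 37.1, 25.0 and 39.4 CPM in WT (log2 fold change 2.10, edgeR adjusted p = 0.00351, SE 0.293). Every knockout library held more Nabp1 than any wild-type library. The checkpoint clamp genes Rad9a and Rad9b rose by 0.48 and 1.87 (edgeR adjusted p = 0.0107 and 0.00303). Rad9b shares 23.2% of its exon bases with Pptc7 on the opposite strand. Rad9a shares 9.53% of them with Ppp1ca, also on the opposite strand and with far more reads. Rmi1, which encodes a partner of BLM, and the helicase gene Recql5 rose by 0.65 and 0.49 (edgeR adjusted p = 0.0137 and 0.0171). Rmi1 shares 5.02% of its exon bases with Hnrnpk on the opposite strand, a gene with far more reads.

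Markers of cycling and of other cells moved with genotype as well, and their part in the members' change was not tested. Shares over all genes tested were 25.0% lower and 28.0% higher. Marker values are with TMM scaling. Their calls were not counted under library totals alone, which raised the log2 fold change of the median gene by 0.40. Of 20 replication genes 18 fell, the log2 fold changes having a median of -0.81, and their summed level was 625 to 740 CPM in PARP2 KO and 1050 to 1170 CPM in WT. Of 20 mitosis genes 20 fell, with a median of -1.40 and sums of 572 to 695 CPM in PARP2 KO and 1460 to 1700 CPM in WT. Across knockout replicates 1, 2 and 3 the list medians were -0.91, -0.80 and -0.71 for replication and -1.65, -1.24 and -1.29 for mitosis, against -0.31, -0.37 and -0.27 for the members.

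All 8 T cell genes rose, against 28.0% of all genes tested, with sums of 403 to 968 CPM in PARP2 KO and 57.0 to 158 CPM in WT. So did all 6 B cell genes, with 1030 to 1530 CPM in PARP2 KO and 98.4 to 294 CPM in WT. All 6 fat cell genes rose, with sums of 3920 to 4760 CPM in PARP2 KO and 253 to 630 CPM in WT. All 5 endothelial genes rose, with sums of 696 to 814 CPM in PARP2 KO and 251 to 286 CPM in WT, and none of the markers of these 4 cell types was at 0 in a library. Of 10 acinar genes 0 were called. The acinar medians were -3.05, -1.12 and -10.83 in knockout replicates 1, 2 and 3. In the remaining lists, 1 of 6 islet, 3 of 5 duct and 3 of 5 fibroblast genes fell. Of 6 macrophage genes 1 rose and 1 fell, and 1 of 3 tested genes of red cell precursors rose. These counts stand against 25.0% lower and 28.0% higher over all genes tested. Few islet genes were called, yet their median log2 fold change was -2.80. Their sums were 224, 557 and 1.34 CPM in PARP2 KO replicates 1, 2 and 3 and 1280 to 3190 CPM in WT. The duct genes had a median of -2.33, with sums of 34, 93.3 and 11.2 CPM in the same knockout replicates and 202 to 317 CPM in WT.

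**Figure D5:**
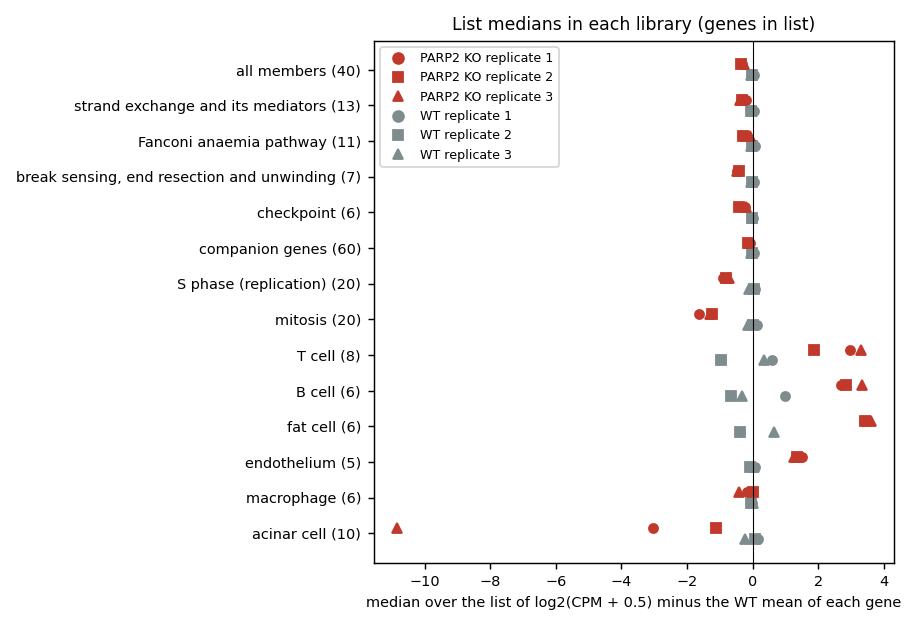
Median over each list of log2(CPM + 0.5) minus the WT mean of each gene (x axis), in each library, with PARP2 KO in red above WT in grey and the number of genes in brackets. The members' medians lie between -0.37 and -0.27 in knockout, those of mitosis genes between -1.65 and -1.24, lymphocyte and fat cell lists are higher, and the acinar list runs from -1.12 to -10.83.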

How the data were processed

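RNA of pancreas from 3 PARP2 KO and 3 WT mice was sequenced with a stranded mRNA kit, per the labels' protocols. The authors deposited whole-number read counts per gene and log2 values, and the deposited log2 values equal log2(count divided by DESeq2 size factor + 1) within 5.15e-14, so only one measurement exists. The submitters' processing notes name FastQC 0.11.5, STAR 2.5.3a, DESeq2 1.28.1 and GRCm38 (mm10), with no role for each. No source used here gives the counting tool or its strand setting.

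From the counts, edgeR 4.0.16 in R 4.3.3 was run with TMM scaling, the default expression filter (17652 of 29721 genes kept), robust quasi-likelihood F-tests on genotype alone and Benjamini-Hochberg adjustment over all genes tested, with 0.05 as the threshold. SE was taken as |log2 fold change| over the root of the F statistic. The procedure was tested on simulated counts in which few genes changed, in equal numbers up and down. In these data many genes changed, so that test cannot check the choice of scaling. Alternatives used other scalings, filters and thresholds, DESeq2 1.42.0, limma 3.58.1 (voom, and on the log2 values), sex or the acinar level as a term, and each library left out. Sex was read from Xist and Y-linked transcripts, which marked PARP2 KO replicate 1 and WT replicates 1 and 2 as males. No replicates agreed within sampling noise (chi-square per degree of freedom 29.1 to 461). Exon lengths and overlaps came from GENCODE vM21, in which all 40 members have the start and end given in the table; lengths are the union of all annotated exons, which understates levels of genes with long rare exons. RefSeq promoter windows (GRCm38.p6) were found for 32 members, and those of Rad51d, Rad54b, Xrcc2, Fancd2, Rad50, Nbn, Rbbp8 and Exo1 were not used here.

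Members, role groups, the 62 further pathway genes (60 found) and markers were chosen with earlier results of these data known. Values in every library are given for the 3 members of smallest p in each role group, all that rose and those whose call hung on a single library, and for the further genes the 6 of smallest p in each direction were to be named. A gene among these is not reported here. The 12 ratios and genes named beyond this rule were chosen after their values were seen.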

Additional observations from a re-analysis of the deposited data

How the results depend on the processing

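No paired analysis was possible because the labels link no knockout animal to a wild-type one, and the replicate numbers used here carry no pairing. Counts were lowest for Rad51c (56 to 115 in a library), Fancf (85 to 130), Rad51b (70 to 109) and Rad54b (92 to 202). The count of members that fell was 17 and stayed within 1.5 times that number with other count filters, sex as a term, DESeq2, limma and every scaling that is not library totals; leaving out each library gave 13 to 16. It was 5 with library totals only, 11 at an adjusted p under 0.01 and 11 with the acinar level as a term. Members that rose were 2 in the reported test, 7 with library totals only, 0 with the acinar level as a term, and 1 with no count filter, DESeq2 size factors, TMM factors computed without digestive enzyme genes, the DESeq2 Wald test, sex as a term or an adjusted p under 0.01; leaving out each library gave 1 to 2. Of the 60 further genes, 9 fell and 22 rose with library totals only, 3 rose at 0.01, 3 rose once the acinar level was a term, and 4 to 14 rose with a library left out. Over all these settings, 11.9% to 27.6% of all genes were called lower and 15.7% to 42.3% higher. The members' median was 0.10 with library totals only and -0.39 with the acinar level as a term.

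Signs of members near zero turned. With library totals only, the log2 fold changes of Palb2 and Rad51b were 0.40, of Rad52 0.11, Xrcc2 0.08, Xrcc3 0.28, Fanca 0.08, Fanci 0.20, Fancl 0.33, Fancm 0.41, Brip1 0.14, Bard1 0.39, Mre11a 0.29, Nbn 0.38, Atrip 0.05 and Topbp1 0.19; that scaling moves the median gene by 0.40. Palb2, Rad51b and Fancm were at 0.01 without a count filter or with at least 1 CPM in 3 libraries, and at 0.01, 0.01 and 0.02 with sex as a term. With a library left out, Palb2 ranged from -0.04 to 0.09, Rad51b from -0.05 to 0.03, Rad51d from -0.02 to 0.08, Xrcc3 from -0.49 to 0.06, Fancm from -0.05 to 0.06, Bard1 from -0.16 to 0.12 and Nbn from -0.05 to 0.02. Once the acinar level entered the model, Rad51b was at 0.04 and Rad51c at -0.01.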
